A study of Mus musculus with 6 samples.

Results

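The cytosolic heat shock chaperones and their main transcription factor were taken as 10 genes, by symbol, of the 30386 in the deposited table. They are Hspa1a, Hspa1b, Dnajb1, Hsph1, Hsp90aa1 and Hspb1, which heat and other protein-damaging stress induce in most cells, Hspa8, Hsp90ab1 and Dnaja1, which most cells make all the time, and Hsf1. The rule that picks them reads gene symbols, and the list itself was drawn up with earlier results of these data known. The mRNA came from epidermis of the back skin of mouse embryos at E18.5, from wild-type embryos (WT, 3 libraries) and from embryos of the genotype p63alphaKO (3 libraries), which by its name lacks the alpha forms of p63, the master transcription factor of stratified epithelium. Strain, sex and the way the allele was made were not given in the sources used here, and no treatment is named for either group. Both groups went through the same steps before RNA was taken: the epidermis was parted from the dermis with Dispase in the cold overnight and then made into single cells with Accutase. No label says that the libraries of a group came from separate embryos, so the spread between them may be technical. Each p-value sets the difference against that spread, which the limma test draws for each gene toward the spread of genes at a similar level.

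Chaperones bind unfolded or half-folded proteins and keep them from clumping. HSP70 proteins do so in cycles of ATP hydrolysis that J-domain proteins start and nucleotide exchange factors end, and they hand many clients on to HSP90. HSF1 is held inactive in unstressed cells, in part by these chaperones, and on stress it binds heat shock elements in their promoters. In epidermis, HSPB1 is known as an abundant small heat shock protein of differentiating keratinocytes.

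The inducible HSP70 pair, Hspa1a and Hspa1b, fell in p63alphaKO, Hspa1b to 49.3% and Hspa1a to 52.6% of WT. Hspa8, the constitutive HSP70 gene, was at 62.1% of WT without passing the test. The other 7 genes did not pass it either, among them both HSP90 genes, the small heat shock gene Hspb1, the J-domain genes Dnajb1 and Dnaja1, the HSP110 gene Hsph1 and Hsf1. Thus 2 of the 10 genes were called, both lower, while 1.65% of all 7464 tested genes were called in either direction and 1.18% were called lower. These 2 are near-copies whose log2 levels followed each other (Pearson's r of 0.954 over the 6 libraries). They may therefore not be 2 separate results. A gene was called when its adjusted p (limma, Benjamini-Hochberg over all tested genes) was under 0.05, and it was tested when its mean was at least 10 CPM (read counts scaled to a common library total), which all 10 genes reached. In bulk RNA, fewer cells of a type and less RNA per cell cannot be told apart.

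Hspa1a and Hspa1b lie side by side on chromosome 17, both on the minus strand and each in a single exon (GRCm38, 34969190 to 34972156 for Hspa1a and 34956436 to 34959238 for Hspa1b). Their coding parts were identical at 99.6% of 1926 aligned bases, and the 250 bases before their start sites differed at 3 positions. These promoters are shown with that of Hspb1, a heat shock gene that was not called, because all 3 hold letters that match a 2-unit heat shock element. The windows run 5' to 3' on the gene's strand and end at the base before the RefSeq start site, at chr17:34972157-34972406, chr17:34959239-34959488 and chr5:135887669-135887918 (GRCm38.p6, sequences from RefSeq). Capitals mark the heat shock element in its 2-unit form, GAANNTTC or TTCNNGAA, where N is any base and each form is its own reverse complement.
Hspa1a: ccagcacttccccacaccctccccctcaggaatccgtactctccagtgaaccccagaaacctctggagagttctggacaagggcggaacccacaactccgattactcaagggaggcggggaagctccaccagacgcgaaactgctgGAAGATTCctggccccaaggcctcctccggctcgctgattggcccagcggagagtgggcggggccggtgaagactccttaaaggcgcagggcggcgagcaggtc
Hspa1b: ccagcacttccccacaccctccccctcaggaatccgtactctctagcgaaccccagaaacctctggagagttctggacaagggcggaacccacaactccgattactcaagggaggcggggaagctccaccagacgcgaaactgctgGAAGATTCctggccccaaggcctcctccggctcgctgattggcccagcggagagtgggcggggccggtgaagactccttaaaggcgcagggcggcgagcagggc
Hspb1: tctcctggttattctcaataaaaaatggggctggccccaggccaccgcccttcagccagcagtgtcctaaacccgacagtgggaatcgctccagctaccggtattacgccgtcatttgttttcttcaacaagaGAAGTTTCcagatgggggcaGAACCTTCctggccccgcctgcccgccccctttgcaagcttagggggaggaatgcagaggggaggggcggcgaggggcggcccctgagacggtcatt

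Both HSP70 promoters hold the same element, which begins at position -104 counted from the start site, and the Hspb1 promoter holds 2, beginning at -117 and -97. Promoter windows of 300 bases, from 250 before to 50 after the start, were found for 6 of the 10 genes. Of these, 5 hold a 2-unit element in at least 1 window (Hspa1a, Hspa1b, Hspb1, Hsph1 and Dnaja1). The 6 genes have 10 windows, and Dnaja1 holds the element in its window 1 but not in windows 2 and 3. Counted by window and not by gene, 15.1% of all 32851 promoter windows hold it. The 3-unit forms GAANNTTCNNGAA and TTCNNGAANNTTC, reverse complements of each other, each contain a 2-unit element and occurred in Hsph1, against 0.603% of all windows. Neither of the 2 windows of Dnajb1 held the letters searched. A match is a description of the letters and not a measured binding site. No window was used here for Hspa8, Hsp90aa1, Hsp90ab1 and Hsf1.

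Although the coding parts are almost the same, the mRNA ends from which 3' reads come are not. After the stop codon, the aligned bases of the HSP70 pair were identical at 71.6%. None of the 451 windows of 50 bases in the last 500 bases of either mRNA occurred in a transcript of another gene, the partner included. Reads of at least 50 bases that match those ends exactly can thus be told apart from annotated transcripts of other genes. Shorter reads, reads with mismatches and the rest of the genome were not checked. Hspa1a overlaps Gm20481 on the opposite strand over 564 exonic bases, of which 0 lie in its last 500, and Gm20481 was at 0 in all 6 libraries.

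The WT libraries held Hspa1b at 186, 246 and 321 CPM in replicates 1, 2 and 3, and the p63alphaKO libraries at 128, 109 and 125 CPM. All 3 p63alphaKO libraries lay below all 3 WT libraries, and the WT libraries were spread more widely. The means were 251 ± 67.8 and 120.5 ± 10.4 CPM (SD, n = 3 each), which is -1.02 as a log2 fold change on the log2(CPM + 1) scale (SE 0.20, 95% interval -1.45 to -0.59, adjusted p = 0.0192 by limma). These values rest on 373 to 1101 reads per library.

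Hspa1a, its neighbour, followed the same pattern at a lower level. It was at 136, 153 and 227 CPM in replicates 1, 2 and 3 of WT, against 91.2, 95.8 and 77.3 CPM in those of p63alphaKO. WT replicate 3 was again the highest and the groups again stood apart. The means were 172 ± 48.3 and 88.1 ± 9.66 CPM, which gave -0.93 on the log2 scale (SE 0.21, 95% interval -1.38 to -0.48, adjusted p = 0.0412). The ratio of Hspa1b to Hspa1a overlapped between the groups, at 1.46 ± 0.124 in WT and 1.38 ± 0.241 in p63alphaKO.

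With both HSP70 copies summed, WT libraries were at 321, 399 and 548 CPM and p63alphaKO libraries at 219, 204 and 202 CPM. The log2 difference of the sum was -0.98 (SE 0.19, 95% interval -1.39 to -0.57, adjusted p = 0.0176). This value does not depend on how reads were divided between the copies. The calls rested on all 3 p63alphaKO libraries: without p63alphaKO replicate 1, 2 or 3 the adjusted p was 0.0762, 0.0921 and 0.0927 for Hspa1b, 0.117, 0.0921 and 0.208 for Hspa1a, and 0.0761, 0.0756 and 0.112 for the sum. The Hspa1a call was the less stable, since it was lost in 10 of 15 other settings, among them WT replicates 2 and 3 left out (0.0533 and 0.0881), TMM scaling (0.0529) and edgeR on reads (0.0523), while its fold change stayed between -1.08 and -0.71.

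**Figure D1:**
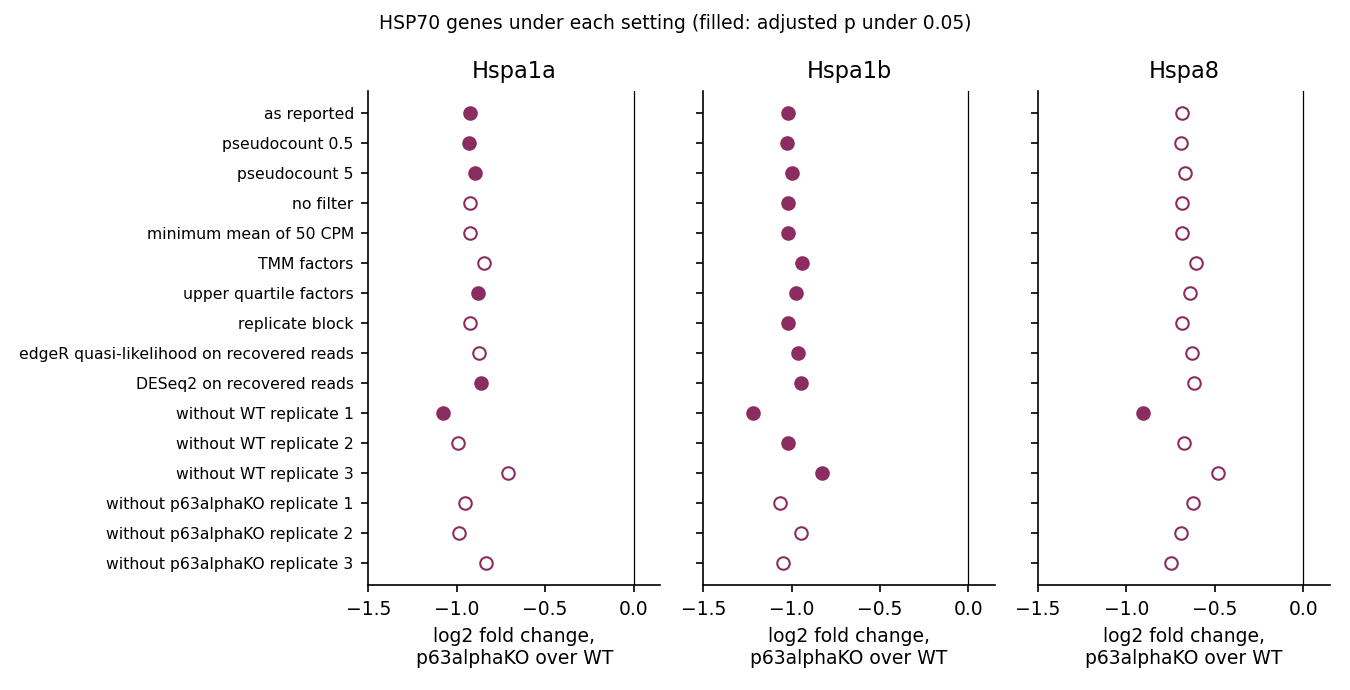
Log2 fold changes (x axis, p63alphaKO over WT) of Hspa1a, Hspa1b and Hspa8 as reported and in 15 other settings (rows). Filled points have an adjusted p under 0.05: 12 of the 15 other settings for Hspa1b, 5 for Hspa1a and 1 for Hspa8, with all points below 0.

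Hspa8 encodes HSC70, the HSP70 of unstressed cells, which also uncoats clathrin vesicles. Its level was 140, 195 and 254 CPM in replicates 1, 2 and 3 of WT, against 108, 119 and 128 CPM in those of p63alphaKO. The order of the WT libraries was that of the inducible pair, and the groups did not overlap. The log2 fold change was -0.69 (SE 0.21, 95% interval -1.14 to -0.24), with an unadjusted p of 0.00546 and an adjusted p of 0.112. Without WT replicate 1, the lowest of its group, it was -0.91 with an adjusted p of 0.0278, and without WT replicate 3 it was -0.48 with an adjusted p of 0.314.

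The level of Hspa8 is uncertain in a way that the same check did not show for its inducible relatives. Of 451 windows of 50 bases in the last 500 bases of its mRNA, 81.8% occurred in transcripts of other genes. These were 11 processed copies annotated as pseudogenes, and none of them is among the genes of the deposited table. Whether reads of theirs were counted as Hspa8 cannot be seen from it. How reads that fit several places were counted was not given in the sources used here, so the CPM of Hspa8 is uncertain. The matching shares were 16.0% for Hspb1, 7.8% for Hsp90ab1 and 0 for the other 7 genes.

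Summed over the 3 HSP70 genes, the p63alphaKO libraries were at 327, 323 and 330 CPM, and the WT libraries at 462, 594 and 802 CPM. The coefficient of variation was between 27.0% and 29.0% for each of these genes in WT and between 8.50% and 11.0% in p63alphaKO. The 3 genes stood apart between the groups as deposited and after TMM and upper quartile rescaling. Groups did not overlap for 4 of the 10 genes, all lower in p63alphaKO, against 13.4% of all tested genes lower and 21.0% in either direction.

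Hspb1, which encodes HSP25, the mouse form of human HSP27, was the fourth of these genes, and its difference was small. The WT libraries held 2225, 2092 and 2059 CPM, all above the 2012, 2000 and 1952 CPM of the p63alphaKO libraries. The log2 fold change was -0.096 (95% interval -0.39 to 0.20, adjusted p = 0.800), which corresponds to a fold between 0.763 and 1.15. This interval is not set by the libraries of Hspb1 alone, whose coefficient of variation was 4.14% in WT and 1.61% in p63alphaKO. It also draws on the spread of genes at a similar level. The groups overlapped after TMM rescaling, when WT ran from 1901 to 2304 and p63alphaKO from 1996 to 2132 CPM.

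**Figure D2:**
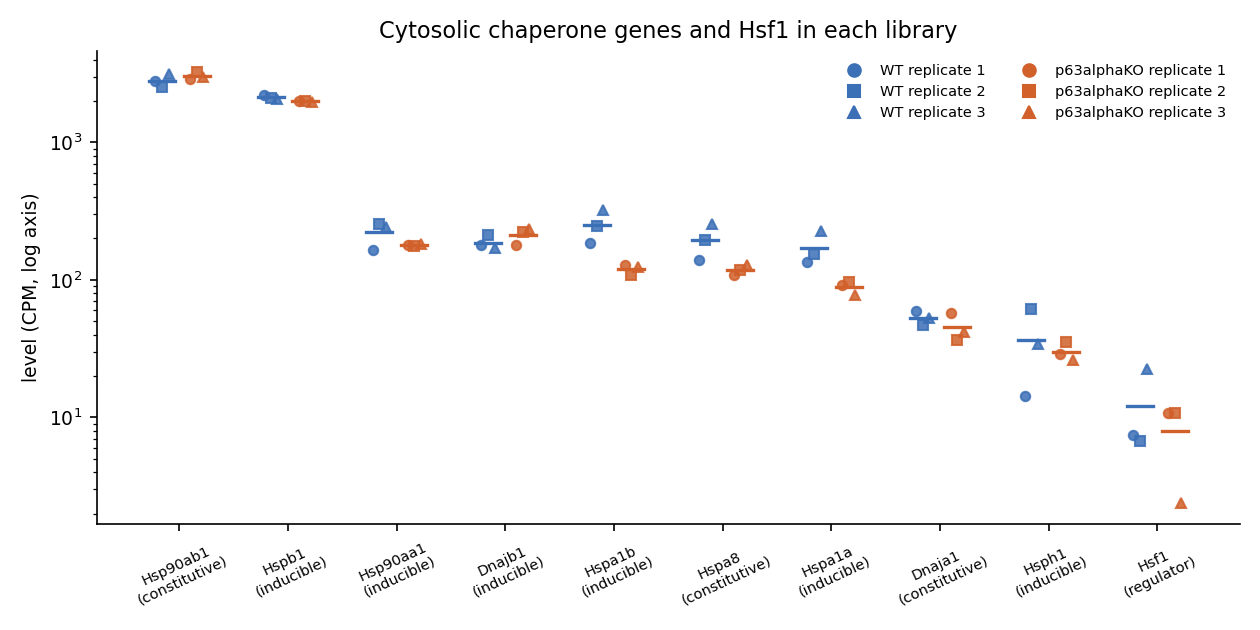
Level of each of the 10 genes in each library (y axis, CPM on a log axis), WT in blue and p63alphaKO in orange, with group means as lines. Hspa1b, Hspa8 and Hspa1a show 3 p63alphaKO points below the 3 WT points, while Hsp90ab1 and Hspb1 are the most abundant and the groups lie close together.

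The HSP90 genes, whose products mature kinases and steroid receptors, gave no call in either direction. The constitutive Hsp90ab1 was the most abundant of the 10 genes, with 2801, 2521 and 3126 CPM in the WT libraries and 2869, 3232 and 2991 CPM in the p63alphaKO libraries. Its groups overlapped, and the log2 fold change was 0.11 (95% interval -0.20 to 0.42, adjusted p = 0.781). The stress-inducible Hsp90aa1 had 165, 256 and 244 CPM in the WT libraries, against 180, 176 and 181 CPM in the p63alphaKO libraries.

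For Hsp90aa1 it was WT replicate 1 that lay below the p63alphaKO libraries and the other two WT libraries that lay above them. The log2 fold change was -0.28 (95% interval -0.68 to 0.12, adjusted p = 0.519). The p63alphaKO values were close together, with a coefficient of variation of 1.66%, against 22.4% in WT. Hsp90aa1 amounted to 0.0796 ± 0.0215 of Hsp90ab1 in WT and 0.0593 ± 0.00442 in p63alphaKO, and these ratios overlapped.

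The J-domain genes and Hsph1 serve the HSP70 cycle. Dnajb1, the stress-inducible J-domain partner of HSP70, had 179, 211 and 170 CPM in the WT libraries and 180, 221 and 233 CPM in the p63alphaKO libraries. It was 1 of the 2 genes with a positive fold change, beside Hsp90ab1, and its groups overlapped (0.17, 95% interval -0.20 to 0.55, adjusted p = 0.694). The interval spans folds from 0.871 to 1.46 of the WT level.

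Dnaja1, a J-domain gene made without stress, had 59.2, 46.7 and 52.6 CPM in the WT libraries and 57.9, 36.4 and 42.1 CPM in the p63alphaKO libraries (log2 fold change -0.23, 95% interval -0.72 to 0.26, adjusted p = 0.687). Its groups overlapped. The last 500 of its exonic bases all overlap Smu1 on the opposite strand, which was itself at 41.8 to 64.4 CPM. Whether counting used the strand was not given in the sources used here, so reads of Dnaja1 and Smu1 may be mixed.

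Hsph1, the HSP110 exchange factor that also dissolves aggregates, was the least even of the chaperones in WT. Its WT libraries had 14.4, 61.0 and 34.0 CPM and its p63alphaKO libraries 28.8, 35.5 and 26.0 CPM, from 37 to 273 reads per library. The p63alphaKO libraries all lay between WT replicates 1 and 2. The log2 fold change was -0.063, with a wide interval from -0.89 to 0.76 (adjusted p = 0.967), and it was -0.59 without WT replicate 1 and 0.41 without WT replicate 2. On the fold scale the interval runs from 0.540 to 1.70, so changes of either sign within it were not detectable at this spread.

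Hsf1 was near the limit for testing, at a mean of 10.1 CPM. The WT libraries had 7.40, 6.70 and 22.4 CPM and the p63alphaKO libraries 10.7, 10.8 and 2.39 CPM, which stands for 19, 30 and 71 reads and 38, 37 and 8 reads. The highest WT value was that of replicate 3 and the lowest of all was p63alphaKO replicate 3. The log2 fold change of -0.56 had an interval from -1.84 to 0.71 (adjusted p = 0.714), and it was 0.034 without p63alphaKO replicate 3. HSF1 is known to be controlled mostly at the protein level, which mRNA does not show.

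**Figure D3:**
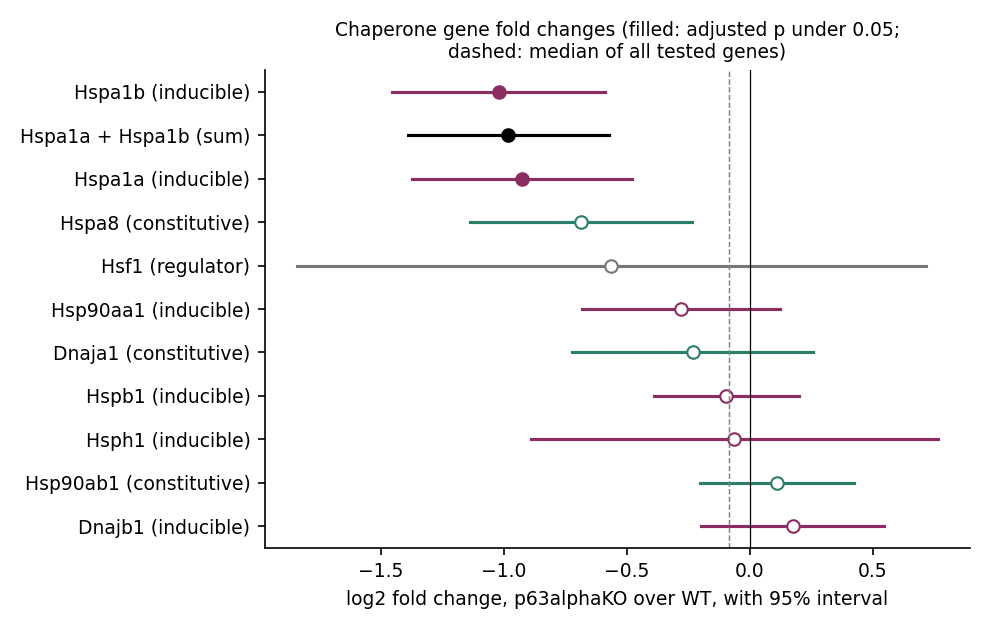
Log2 fold change (x axis, p63alphaKO over WT, log2(CPM + 1) scale) with its 95% interval for the 10 genes and for Hspa1a and Hspa1b summed, coloured by class. Hspa1b, Hspa1a and their sum are filled as called, Hspa8 has an interval below 0 without a call, and the other intervals include 0.

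The division into inducible and constitutive genes did not separate the fold changes. Of the 6 inducible genes 5 were negative, with a median log2 fold change of -0.19, and of the 3 constitutive genes 2 were negative, with a median of -0.23, while the median over all tested genes was -0.085. Of all tested genes 59.8% were negative, a share that was 50.7% after TMM rescaling. Both calls were in the inducible class, but the remaining 4 inducible genes ran from -0.28 to 0.17. The mean log2 level of the inducible genes minus that of the constitutive ones was -0.74, -0.17 and -0.51 in WT replicates 1, 2 and 3, and -0.64, -0.46 and -0.61 in p63alphaKO. These groups overlapped, at -0.47 ± 0.28 and -0.57 ± 0.095 (SD, n = 3 each), and the difference of -0.098 changed sign, to 0.052, without WT replicate 2. Summed CPM of the inducible genes stood apart, at 2905 to 3055 in WT and 2593 to 2637 in p63alphaKO, and Hspb1 made up most of it. Summed CPM of the constitutive genes overlapped, at 2763 to 3433 in WT and 3035 to 3387 in p63alphaKO.

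Within HSP70 the inducible part was somewhat smaller in p63alphaKO. Hspa1a and Hspa1b together were 2.29, 2.05 and 2.15 times the CPM of Hspa8 in WT and 2.03, 1.72 and 1.57 times in p63alphaKO. All p63alphaKO ratios lay below all WT ratios, by a narrow margin at 2.03 and 2.05. No test was made of these combined measures, since their genes were chosen with earlier results known, and the uncertainty of Hspa8 enters each ratio.

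Since 3' reads give 1 end per mRNA, CPM was not divided by length, and levels of different genes are compared on the CPM scale. In WT the order by mean CPM was Hsp90ab1 (2816), Hspb1 (2125), Hspa1b (251), Hsp90aa1 (222), Hspa8 (197), Dnajb1 (187), Hspa1a (172), Dnaja1 (52.8), Hsph1 (36.5) and Hsf1 (12.2). The libraries of neighbours overlapped from Hspa1b to Hspa1a and from Dnaja1 to Hsf1 in this order, and not at its other steps. In p63alphaKO it was Hsp90ab1 (3031), Hspb1 (1988), Dnajb1 (211), Hsp90aa1 (179), Hspa1b (120.5), Hspa8 (118), Hspa1a (88.1), Dnaja1 (45.4), Hsph1 (30.1) and Hsf1 (7.96). Here the overlapping neighbours were Dnajb1 with Hsp90aa1 and Hspa1b with Hspa8. Hsp90ab1 and Hspb1 alone made up 81.6% ± 3.04 of the CPM of the 9 chaperones in WT and 86.4% ± 0.481 in p63alphaKO. All 9 chaperones together took 0.606% ± 0.0377 of counts in WT and 0.581% ± 0.0191 in p63alphaKO, and these shares overlapped.

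Beyond the 10 genes, 101 further genes of the chaperone network were listed by function, of which 86 were tested. None was called by limma, 8 had an unadjusted p under 0.05 (4 higher and 4 lower), 0 were called by edgeR and 1, Hspb8, by DESeq2. Their median log2 fold change was -0.015, with 40 positive and 46 negative, while 59.8% of all tested genes were negative. Hspb8, a small heat shock gene that works with BAG3 in selective autophagy, had 149, 141 and 125 CPM in the WT libraries and 214, 250 and 184 CPM in the p63alphaKO libraries. Its p63alphaKO libraries all lay above the WT libraries (log2 fold change 0.63, adjusted p = 0.0819 by limma and 0.0108 by DESeq2), opposite in sign to the HSP70 pair.

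Genes that work directly with HSP70 and HSP90 had values on both sides of 0. Among 15 tested co-chaperones 9 were negative, with Fkbp5, a steroid receptor immunophilin, at -0.70 (adjusted p = 0.163) and Chordc1, an HSP90 co-chaperone that HSF1 is known to induce, at -0.62 (adjusted p = 0.254). Among 7 exchange factors 5 were positive, with Bag4 at 0.65 (adjusted p = 0.257) and Hspbp1 at 0.16 (adjusted p = 0.796). Among 11 other cytosolic J-domain genes 7 were positive, with Dnajb4 at 0.47 and Dnaja4 at -0.40 (adjusted p = 0.276 and 0.585). Of the 4 other HSP70 and HSP110 genes tested, Hspa12a had the lowest value, -1.12, and Hspa4 the highest, 0.19 (adjusted p = 0.199 and 0.652).

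The chaperones of other compartments gave no call either. All 7 mitochondrial chaperone genes were negative, with a median of -0.30, while 59.8% of all tested genes were negative. Among the 7 were Trap1, the mitochondrial HSP90, at -0.61 and Dnaja3 at -1.06 (adjusted p = 0.304 and 0.349). In the endoplasmic reticulum 5 of 11 were positive, with Hspa5, the HSP70 of that compartment, at 0.35 (adjusted p = 0.296) and Dnajb11 at -0.58 (adjusted p = 0.348). Hspa5 had 1270, 1368 and 1054 CPM in the WT libraries and 1473, 1782 and 1459 CPM in the p63alphaKO libraries, so its p63alphaKO libraries stood above the WT libraries where those of Hspa8 stood below.

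The cytosolic chaperonin and prefoldin genes had a median of 0.015 over 13 genes, with Pfdn2 at -0.43 and Cct7 at 0.20 (adjusted p = 0.491 and 0.658). Ubiquitin and proteasome genes had a median of -0.0070 over 11 genes, with Psmc4, a subunit of the proteasome's regulatory particle, at 0.32 (adjusted p = 0.521). Among 6 tested heat shock factors and regulators, Sirt1 was at 0.67 and Ddx39b at -0.23 (adjusted p = 0.440 and 0.662).

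**Figure D4:**
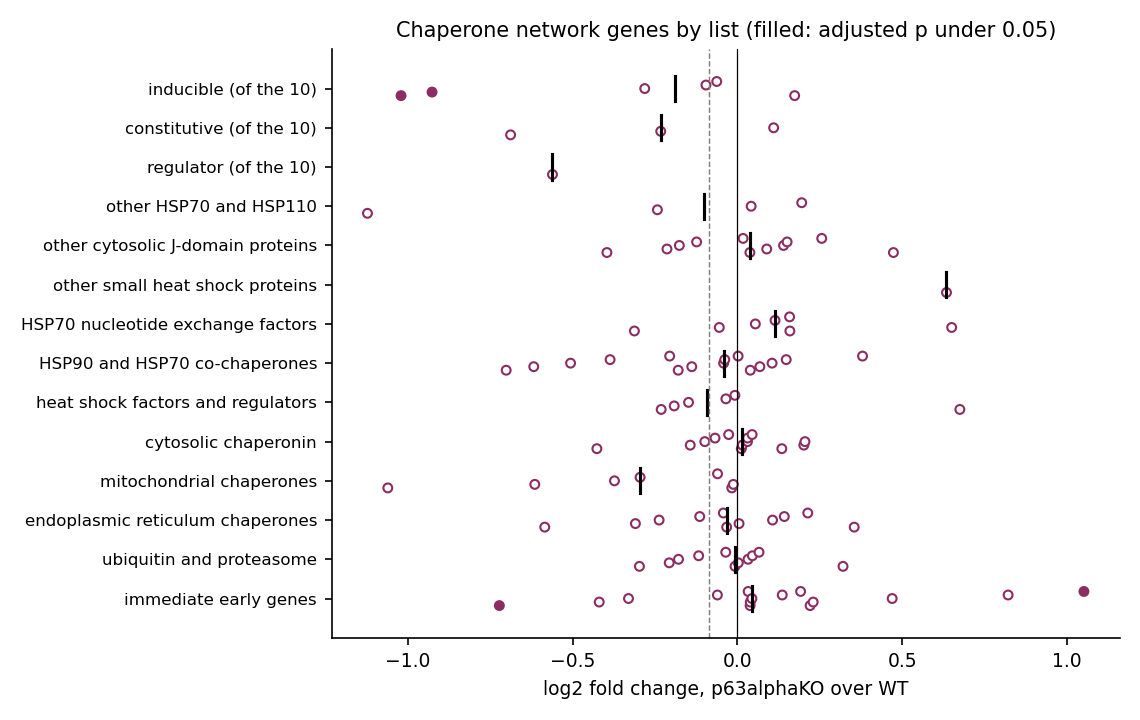
Log2 fold changes (x axis, p63alphaKO over WT) of the tested genes of each list, with 1 point per gene, a black bar at the list's median and a dashed line at the median of all tested genes, -0.085. Filled points are called: Hspa1a and Hspa1b among the chaperones, and Fos and Ier3 among the immediate early genes.

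Immediate early genes, which cells switch on within minutes of a disturbance, were read in the same libraries because tissue handling can induce them together with heat shock genes. They did not move one way: of 15 tested, 11 were positive and 4 negative, with a median of 0.044. Of all tested genes 59.8% were negative, and their median was -0.085. Fos and Ier3 were the genes called, while 1.65% of all tested genes were called in either direction. Fos, a subunit of AP-1, fell from a WT mean of 661 ± 55.4 to 402 ± 53.9 CPM in p63alphaKO (-0.72 on the log2 scale, adjusted p = 0.0335), and its groups stood apart like those of the HSP70 pair. Ier3 rose from a WT mean of 212 ± 58.0 to 429 ± 21.3 CPM (1.05 on the log2 scale, adjusted p = 0.0159), while Egr2 was at 0.82 (adjusted p = 0.204) and Dusp1 at -0.42 (adjusted p = 0.341). The call of Fos was lost in 9 of 15 other settings and that of Ier3 without p63alphaKO replicate 1, 2 or 3 (adjusted p = 0.0798, 0.0744 and 0.0854). The part of handling in the HSP70 values was not tested.

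Markers of other cell types differed between the same groups. The 10 fibroblast and dermis markers summed to between 2149 and 4874 CPM in WT and between 306 and 643 CPM in p63alphaKO. Of their 9 tested genes 8 were called lower, while 1.18% of all tested genes were called lower. The 11 skeletal muscle markers summed to 456 to 2921 CPM in WT and 62.1 to 111 CPM in p63alphaKO (7 of 9 called lower), and the 7 red blood cell markers to 1903 to 3441 and 559 to 1769 CPM (3 of 4 called lower). By edgeR and DESeq2 the lower calls were 7 and 8 for dermis and 6 and 7 for muscle, but 0 and 0 for red blood cells. No defining marker of these 3 lists was at 0 in all libraries. Melanocyte markers summed to 183 to 326 CPM in WT and 328 to 473 CPM in p63alphaKO, sums that did not overlap, with all 3 tested genes positive, 0 called by limma or edgeR and 1 by DESeq2. Endothelial markers summed to 8.48 to 40.1 CPM in WT and 2.39 to 4.95 CPM in p63alphaKO, also apart, with no gene above the minimum for testing. Immune markers, at 4.77 to 13.2 CPM over all libraries with Cd3e at 0 in each, had none above it either. Nerve markers summed to 121 to 132 CPM in WT and 86.1 to 128 CPM in p63alphaKO, with 0 of 3 tested genes called by limma, edgeR or DESeq2 and 2 at an unadjusted p under 0.05 by limma. In WT replicates 1, 2 and 3 the dermis sum was 4874, 2149 and 3364 CPM and the muscle sum 456, 2921 and 463 CPM. Hspa1a and Hspa1b together were at 321, 399 and 548 CPM in the same libraries. The 8 keratinocyte markers summed to between 110310 and 119600 CPM in all 6 libraries and thus were abundant, as the tissue label would have it. Of these 8 genes 0 were called by limma, edgeR or DESeq2, and 0 had an unadjusted p under 0.05 by limma. The part of the other cell types in the HSP70 values was not tested.

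**Figure D5:**
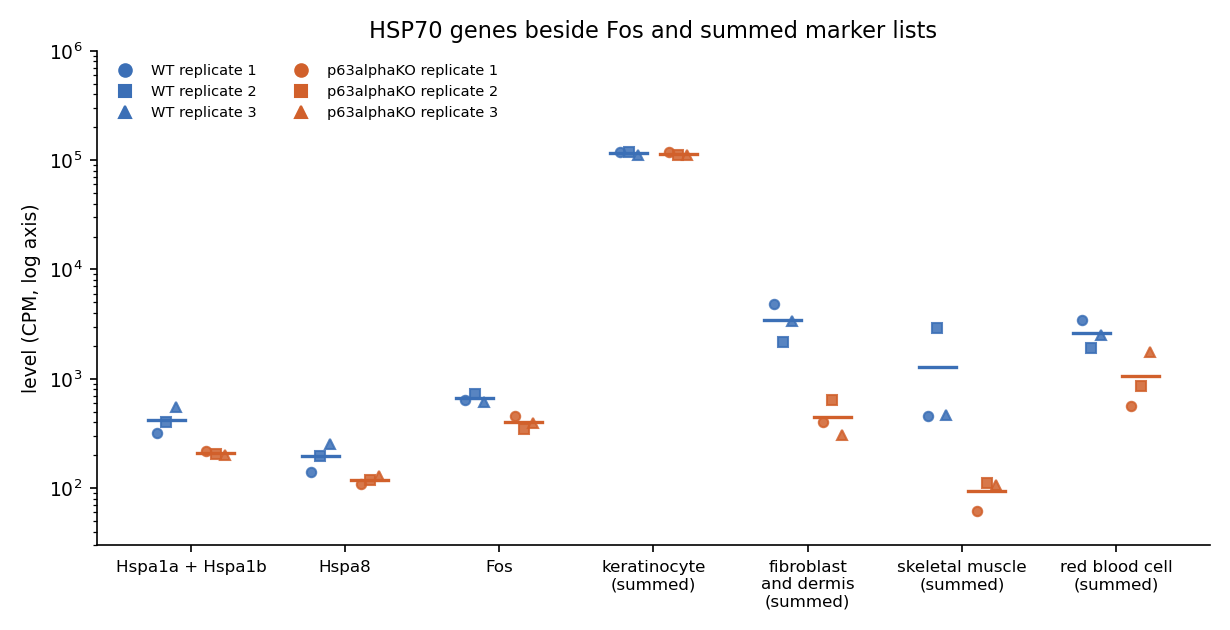
Levels per library (y axis, CPM on a log axis) of Hspa1a and Hspa1b summed, Hspa8 and Fos beside the summed markers of 4 cell types, WT in blue and p63alphaKO in orange, with group means as lines. The keratinocyte sums lie close together, while the dermis, muscle and red blood cell sums are lower in the p63alphaKO libraries, where the HSP70 genes and Fos are also lower.

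By a rule on likeness, the genes whose log2 levels over the 6 libraries followed the mean of the 6 inducible chaperones most closely were Tprgl, Pgap1 and Wnt7b, a Wnt ligand of epidermis, with Pearson's r of 0.990, 0.987 and 0.986. Among 7317 genes compared, 48 had r over 0.95 with these 6 points, so a high value here is no finding by itself.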

How the data were processed

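The 6 libraries were made by 3' digital sequencing of mRNA, per the labels' protocols, and the submitters' processing notes name STAR, HTSeq and mm10. Versions, annotation and the strand setting were not given in the sources used here, and the labels give a Qiagen kit in one field and a Zymo kit in another. The deposited values were taken as CPM from their column totals and steps. They were whole multiples of 1 read's worth for 100% of values (tolerance 0.0055 CPM), which gave 2564407 to 4474764 reads per library, so that 10 CPM stands for 25.7 to 44.8 reads.

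The test was limma-trend 3.58.1 (R 4.3.3) on log2(CPM + 1), two-sided, with genotype as the only term, over the 7464 genes whose mean reached 10 CPM, adjusted by Benjamini-Hochberg over all of them. This scale understates changes of low genes. Alternatives were edgeR 4.0.16 and DESeq2 1.42.0 on the recovered reads, other pseudocounts, filters and scalings, a replicate block and leaving out each library. The steps were tested on simulated data.

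Named beside the 10 genes were, per chaperone network list and for the immediate early genes, every called gene and the 2 of the rest with the smallest p, and the 3 unlisted genes most like the mean of the inducible genes. One gene that this rule names is not reported here. Marker lists of other cell types are given by counts and sums. The members and lists were chosen with earlier results of these data known. Positions and transcripts are from GENCODE mouse release 21 on GRCm38, which is mm10, and promoters from RefSeq on GRCm38.p6. Proteins were not compared.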

Additional observations from a re-analysis of the deposited data

How the results depend on the processing

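The log2 fold changes of Hspa1a, Hspa1b, their sum and Hspa8 were negative in all 15 alternatives. Of the 10 genes, 1 was called with no filter, a minimum mean of 50 CPM, TMM factors, the replicate block and edgeR, each time Hspa1b, and between 0 (without any 1 p63alphaKO library) and 3 (without WT replicate 1) with 1 library left out. Leaving out 1 library put the summed pair between -1.16 and -0.78. Of all tested genes 123 were called, against 36 at a minimum of 50 CPM, 317 by DESeq2 (152 higher and 165 lower) and 37 (without p63alphaKO replicate 3) to 186 (without WT replicate 1) with 1 library left out. In the wider network the count was 1 with no filter (Dnajc6) and 1 by DESeq2 (Hspb8). Hsph1 changed sign with TMM factors (0.016), without WT replicate 2 and without p63alphaKO replicate 3 (0.034), and ran from -0.59 to 0.41 with 1 library left out. Hsf1 changed sign without p63alphaKO replicate 3 (0.034) and ran from -0.86 to 0.034. Replicate numbers were shared by the groups, but same-numbered libraries did not deviate together (r of -0.023, 0.066 and -0.11 across genes), so the numbers were not taken as pairs. The paired fit with the replicate block gave 127 calls over all genes, and Hspa1a had an adjusted p of 0.0569 in it. The cause of these shifts was not tested. Depth limits Hsf1 most, with 8 to 71 reads. The minimum of 50 CPM leaves out Hsph1, Dnaja1 and Hsf1.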

Other observations

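Dnajc6, the auxilin gene of clathrin uncoating and a J-domain partner of Hspa8, was under the minimum for testing and is named because of its value. It was at 0 in the 3 WT libraries and at 2.82, 3.49 and 5.67 CPM in p63alphaKO replicates 1, 2 and 3, which is 41 reads. Set against an assumed 3 reads over the WT group (0.294 CPM), the 3.97 CPM of the p63alphaKO group was 13.5-fold higher. As WT had 0 reads, this ratio is a bound and not a measured fold. It leaves out the counting error of the 41 reads and the spread between libraries. With no filter on level its adjusted p by limma was 0.0493. The gene enters that fit only through its p63alphaKO reads and was picked for this difference. This p is therefore no support for it.

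Of the small heat shock genes other than Hspb1, Cryab, Hspb2, Hspb3, Hspb6 and Hspb7 had a mean under 10 CPM and were not tested, and Hspb3 was at 0 in all 6 libraries.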
